A study of Mus musculus with 6 samples.

Results

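The distal shared peaks are 3546 regions of p53 ChIP-seq signal out of the 24507 peaks listed for splenic B cells of irradiated mice, a share of 14.5%. They were selected on the measured peak lists. A peak of the B cells IR list was taken when its deposited value was below 100. This value was read from its distribution as the −log10 of the p-value that the peak caller gave. The midpoint of the peak had to lie more than 20 kb from every annotated transcription start site. The peak had to overlap a peak of the non-B cells IR list by at least 1 bp. It could overlap no peak of the B cells mock, non-B cells mock or Trp53-/- spleen IR list. Weak to moderate value, sharing between the irradiated compartments, absence from the other lists and distance therefore describe how the set was made and are no findings. Sequence, place relative to gene bodies and to each other, and the size of the non-B cells value were not used.

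p53 is a transcription factor that is stabilised when DNA is damaged and then activates genes for cell cycle arrest, repair and death. It binds DNA as a tetramer, and its response element is a pair of similar decamers, each with a C and a G at fixed places around an AT-rich centre, which lie side by side or are separated by a short spacer. Much p53 binding lies away from promoters, in introns and between genes, at enhancers and in sequence without marks of active chromatin. Repeated sequences of the genome that carry a response element are also known to be bound.

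The study had 6 libraries from C57/Bl6 mice, 1 per group. Trp53+/+ splenic B cells, selected with beads against the B220 surface protein, and non-B cells, the flow-through of the same column, came from 8-week-old mice that were mock treated or examined 4 h after 7 Gy of whole-body irradiation (IR). The other immunoprecipitated library was of total splenic cells of Trp53-/- mice 4 h after 7 Gy, and the input library has no peak list. The antibody was NCL-p53-CM5p, and the chromatin of each library was a pool of animals, so the spread between animals was not measured. No test between conditions was possible, and the 95% Wilson and Newcombe intervals given here cover counting error over peaks or sequences only.

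Of the 24507 B cells IR peaks, 23462 had a value below 100, 5531 of these lay more than 20 kb from a start site, 3712 of these overlapped a non-B cells IR peak, and 3546 were left after 166 that overlapped a mock peak were removed. The Trp53-/- list removed 1 of these 166 and no other. Over the whole B cells IR list, 73.6% of peaks had such an overlap with the non-B cells IR list. The smallest peak was 175 and 174 bp wide in the irradiated B and non-B lists, against 55 and 53 bp for the mock lists and 55 bp for Trp53-/-, and read numbers were not used here, so absence from a mock list does not show absence of p53. A mock or Trp53-/- peak lay within 1 kb of 54 of the distal shared peaks.

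The distal shared peaks had a median width of 384 bp and a median distance to the nearest start site of 42715 bp, with quartiles of 28292 and 75454 bp and a largest distance of 757599 bp. Far from a start site did not mean far from a gene. The midpoint of 1431 peaks lay inside an annotated gene body, 40.4% (38.8 to 42.0%), of which 1380 were in an intron and 51 in an exon, and 2115 were intergenic. Of all 600 bp windows tiled over the same part of the genome, 30.5% had their midpoint inside a gene body. These windows were not matched for distance to a start site. Of distal peaks below 100 listed in irradiated B cells alone, 44.5% (42.3 to 46.8%) lay inside a gene body. The 3 peaks just below the limit of 100 lay near Gm1305, Cnn3 and 5730420D15Rik, with values of 99.9 for the last and just under 100 for the others, and the 3 otherwise qualifying peaks just above it had 100, 101 and 101, near Gm13498, H2afy3 and CT010480.1. The 3 nearest to the distance limit lay 20003, 20012 and 20024 bp from the start sites of Nsmce1, Sik1 and Rb1, the last of these the retinoblastoma gene, and the 3 just left out lay 19999, 19992 and 19978 bp from those of Nedd9, Fhl2 and Lpp.

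The element itself was seen most plainly in the peaks that carried it without mismatch. The 6 shown are those with no mismatch and the highest non-B cells IR values, each given on the plus strand of mm9 (NCBIM37) with 10 bases on either side and the 20 bases of the element in capitals.
Fam55b, chr9:47916158-47916197: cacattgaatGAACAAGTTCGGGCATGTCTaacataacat
Dtnb, chr12:3548031-3548070: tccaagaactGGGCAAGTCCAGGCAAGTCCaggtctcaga
U1, chr10:46505644-46505683: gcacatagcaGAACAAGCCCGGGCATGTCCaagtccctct
AC144543.1, chr12:107136487-107136526: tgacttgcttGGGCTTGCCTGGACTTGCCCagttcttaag
Arhgap18, chr10:26655052-26655091: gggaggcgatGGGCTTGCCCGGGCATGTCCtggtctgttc
SNORA17, chr15:19552308-19552347: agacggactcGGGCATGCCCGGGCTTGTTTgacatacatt

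Each is named by the gene of the nearest start site, and all 6 were intergenic. The peak nearest to Fam55b, 232697 bp away, had a value of 67.6 in B cells IR against 132 in non-B cells IR, and its 20 bases occur at 1 place in the genome. The peak 24058 bp from Dtnb, the gene of dystrobrevin beta, had 65.0 and 95.8. The peak 52729 bp from a U1 small nuclear RNA model had 90.4 and 89.0, and its element is also found at 1 place. The other 3 had 73.9 and 82.7, 51.4 and 78.1, and 79.5 and 78.1. In the peak near Arhgap18 the surrounding sequence is also repeated, with a median of 132 copies of its 24-base words. The elements of the peaks near Dtnb, AC144543.1, Arhgap18 and SNORA17 have 29, 25, 127 and 23 identical copies in the genome, and the first 3 of these are R7, R9 and R2 of the recurring sequences described further on.

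An unsplit element, meaning 2 abutting decamers with the fixed C and G present and at most 3 mismatches at the 16 other places (purines before the C, A or T in the centre, pyrimidines after the G), was found within 300 bp of the midpoint in 974 distal shared peaks, 27.5% (26.0 to 29.0%). It was found in 2.17% of all tiled windows more than 20 kb from a start site and in 15.3% of all B cells IR peaks. Peaks that met the same rule except for lying within 1 kb of a start site carried it in 286 of 6923 cases, 4.13% (3.69 to 4.63%), so the distal peaks exceeded them by 23.3 percentage points (21.8 to 24.9). Peaks of the same rule between 1 and 20 kb from a start site stood between, at 18.7% (17.7 to 19.7%). No mismatch at all was seen in 125 distal shared peaks, 3.53% (2.97 to 4.18%), against 1 of 6923 start-site peaks, a difference of 3.51 percentage points (2.95 to 4.17), and 0.0142% of tiled windows.

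Value and sharing, which the rule used, went with the element as well. Distal peaks that met the rule but for a value of 100 or more had an element in 70.5% (64.6 to 75.7%), and distal peaks below 100 that were listed in irradiated B cells alone in 14.9% (13.3 to 16.6%). The peaks listed in B cells alone were weaker, with a median value of 12.1 against 25.8 in the distal shared peaks. They were not split by value, so sharing was not compared at like value. Among the distal shared peaks the share rose from 14.9% of those with a value of 5 to 10 to 43.9% of those with 50 to 100. In start-site peaks of the same values it rose from 1.78 to 11.5%, so the distal peaks were above the start-site peaks in each of the 5 value bands. GC content differed between the sets, with a median of 45.8% in the distal shared peaks, 59.0% at start sites and 40.3% in the tiled windows. In windows of 45 to 50% GC an element was present in 25.9% (23.6 to 28.3%) of distal shared peaks and 3.10% of tiled windows. At 40 to 45% GC the shares were 35.4 and 2.37%. At 50 to 55% GC they were 14.7% (12.1 to 17.7%) and 3.51%, and at 55 to 60% GC 16.7% (10.9 to 24.6%) and 3.30%. Start-site peaks were not split by GC, so their difference from the distal shared peaks was not compared at like GC.

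The element lay near the middle of the peak. Its centre was a median of 38 bp from the midpoint, within 50 bp in 613 of 974 peaks (62.9%) and within 100 bp in 820 (84.2%), and 930 elements lay wholly inside the peak. A spaced element with 1 to 15 bases between the decamers and at most 1 mismatch was present in 222 distal shared peaks, 6.26% (5.51 to 7.11%), against 1.36% of tiled windows, and 114 of these had no unsplit element. A spacer of 1 base accounted for 56 of the 222, and the next most frequent, 10 bases, for 24. A single decamer without mismatch was found in 40.4% of the peaks and 16.7% of tiled windows. None of these forms was found in 1894 peaks, 53.4% (51.8 to 55%), so most of the set had no recognisable element by these criteria.

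Seen from the side of the sequence, most elements this far from a start site lay in no peak. The genome held 58003 unsplit elements more than 20 kb from a start site, and 3.43% of them lay inside a B cells IR peak of any value. Of the elements whose 20 bases occur at fewer than 10 places, 47.9% (41.8 to 54.0%) of those with no mismatch were in a B cells IR peak, 16.6% (15 to 18.4%) with 1 mismatch, 4.89% with 2 and 1.27% with 3. Of the 257 without mismatch, 114 were in a peak of both irradiated lists, 133 in neither, and 73 in a distal shared peak. The share fell steeply with each mismatch.

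The bases at the centre of the decamers went with the share as well. The centre CATG, the A and T between the fixed C and G, was compared with the other centres. Among elements with 1 mismatch and fewer than 10 copies, 37.6% (31.4 to 44.1%) were in a B cells IR peak when both decamers had CATG, 22.7% (19.7 to 26.0%) when 1 had it, and 7.34% (5.84 to 9.19%) when neither had. With 2 mismatches the shares were 16, 6.44 and 1.32%. With no mismatch they were 66.7% (46.7 to 82.0%) of 24 elements, 49.3% of 71 and 44.4% of 162, and these intervals overlap. In that class, elements with CAAG at both centres were in a peak in 52 of 87 cases, 59.8% (49.3 to 69.4%), while those with CAAG and CTAG were in 5 of 25, 20% (8.86 to 39.1%), in the order CAAG-CTAG and in 1 of 8 in the order CTAG-CAAG. The share also varied with the place of a single mismatch. An element with CATG at both centres cannot have a mismatch in a centre. Centre letters and mismatch place are therefore mixed in the shares above for elements with mismatches. Positions were numbered from 1 at the outer end of a decamer to 10 at the junction with the other. A mismatch at position 8, the pyrimidine beside the fixed G on the junction side, left 4.98% (2.93 to 8.33%) of 261 elements in a peak, and a mismatch at position 1 left 24.7% (19.7 to 30.4%) of 247. These were the lowest and the highest share by position, and the shares followed no order from edge to centre. Of the centre positions, 5 had 23.0% (17.8 to 29.3%) and 6 had 10.2% (6.49 to 15.8%).

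**Figure D1:**
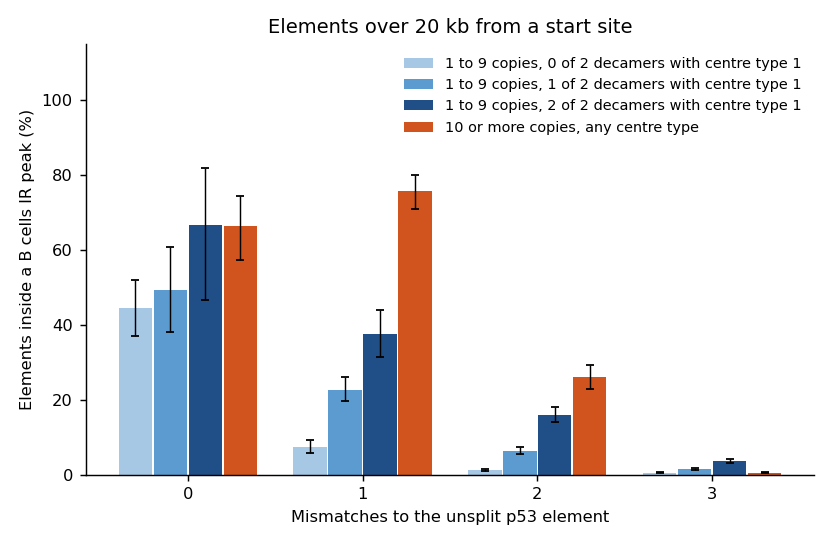
Percentage of unsplit elements more than 20 kb from a start site that lay inside a B cells IR peak, by mismatches to the element; blue bars are elements of 1 to 9 genome copies, split by how many of the 2 decamers have the centre CATG (type 1), orange bars are elements of 10 or more copies, and error bars are 95% Wilson intervals. With 1 mismatch the blue bars stand at 7.34, 22.7 and 37.6% and the orange bar at 75.7%. Of the 334 elements behind that orange bar, 145 are copies of 1 sequence, R1 of the recurring sequences described further on. Another 48 and 47 are copies of R3 and R4, which differ from R1 by 1 base each. With 3 mismatches the orange bar is at 0.544%.

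Part of the elements recur at many places. Of the 974 distal shared peaks with an unsplit element, 258 had a best element whose 20 bases occur at 10 or more places in the genome, 7.28% of all distal shared peaks (6.47 to 8.18%). Among distal peaks of the same rule but for a value of 100 or more the share was higher, 15.7% (11.8 to 20.7%), and between 1 and 20 kb from a start site it was 3.51%. At start sites of the same rule it was 0.116%, and in distal B cells IR peaks without a non-B partner 1.60%. The 9 sequences found in most peaks, in 6 or more each, are shown because they account for so many of them, with the 4 central bases of each decamer in capitals and on the strand whose letters come first in the alphabet.
R1: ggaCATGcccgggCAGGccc
R2: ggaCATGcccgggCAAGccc
R3: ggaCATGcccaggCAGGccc
R4: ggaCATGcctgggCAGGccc
R5: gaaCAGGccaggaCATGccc
R6: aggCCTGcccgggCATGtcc
R7: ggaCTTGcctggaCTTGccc
R8: aggCCTGcctgggCATGtcc
R9: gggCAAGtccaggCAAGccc

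Counting from 1 at the first base, R2 differs from R1 by G16A, R3 by G11A and R4 by C10T. R1 was the best element of 92 distal shared peaks, on 20 chromosomes, R2 of 35, R3 of 28 and R4 of 25, and these 4 made up 180 of the 974 peaks with an element, 18.5%. In all, 18 sequences recurred in 3 or more distal shared peaks, 258 peaks together. These are not the same 258 peaks as those with 10 or more copies, since 4 of the 18 sequences have only 3 to 8 copies.

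The share of all genome copies that lay in peaks was high for the 9 sequences shown, from 61.4 to 96.8% in B cells IR. The sequences were picked from peaks that the rule required to be in both irradiated lists and in no other, so these shares and the low ones in the mock and Trp53-/- lists are partly set by the choice and are given as a description. Over all 18 sequences the share ranged from 30.4 to 100%. R1 has 285 copies in the genome, of which 248 lay in a B cells IR peak, 87.0% (82.6 to 90.4%), and 255 in a non-B cells IR peak. The B cells mock list held 15 of them, the non-B cells mock list 11, and the Trp53-/- list 0. R3, R4 and R5 were in B cells IR peaks at 80.5, 85.5 and 87.3% of their 82, 83 and 306 copies, and R6 at 30 of 31. R2, which has no mismatch where R1 has 1, was in a B cells IR peak at 78 of 127 copies, 61.4% (52.7 to 69.4%), a lower share than R1. Both were picked from peaks of the rule and copies of 1 sequence are not independent, so this difference is a description only. The surroundings differ as well. A further decamer that makes another element with the adjoining one stood beside 175 of the 285 copies of R1 (61.4%) and beside 3 of the 127 of R2.

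**Figure D2:**
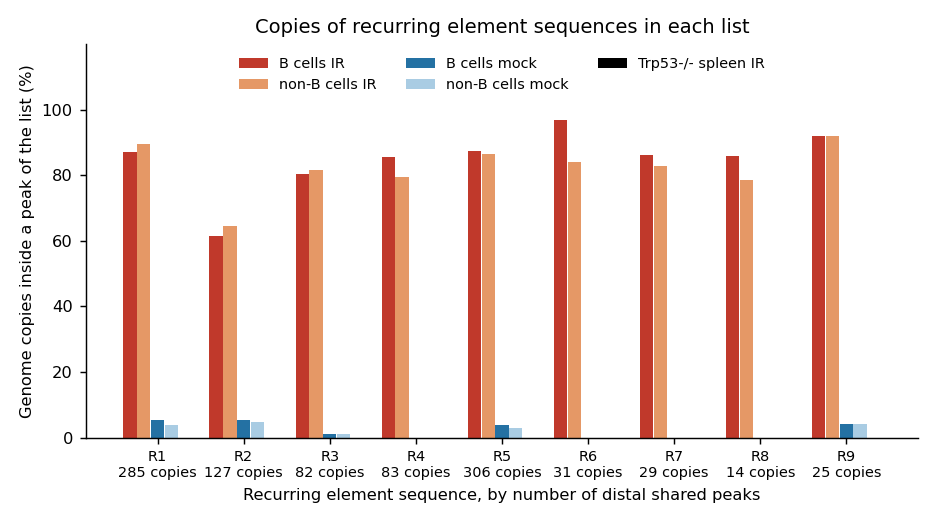
Percentage of all genome copies of the 9 recurring element sequences that lay inside a peak of each of the 5 lists; each group of bars is 1 sequence, with its number of copies below. Copies in the irradiated lists range from 61.4 to 96.8% (B cells) and 64.6 to 92.0% (non-B cells), in the mock lists from 0 to 5.51%, and the Trp53-/- bars are at 0.

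Of the 285 copies of R1, 88 lay inside a distal shared peak and 130 in a peak within 20 kb of a start site. Each copy was counted under the first limit its peak missed, in the order distance, value, mock overlap and sharing, so copies in mock peaks also stand under the earlier limits. Another 28 were in peaks with a value of 100 or more, 1 in a peak that overlapped a mock peak, 1 in a peak absent from non-B cells IR and 37 in no B cells IR peak. The 92 distal shared peaks with R1 had values from 5.80 to just under 100 in B cells IR, with a median of 36.1, and of 9.27 to 142 in non-B cells IR, with a median of 35.9. Identical 20-base sequences thus had values across nearly the whole range that the rule allowed.

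The similarity went beyond the element and was closer before it than after it. The 60 bases before R1 matched the commonest base at a median of 98.3% of positions over the 92 peaks, and the 60 bases after it at 58.3%, although single positions after it matched in up to 98.9% of the peaks. Of the peaks with R1 and the highest B cells IR values, 5 are shown with 30 bases before and 10 after the element, read along its strand, to let the shared stretch be seen. The element is in capitals.
Gm1305, chr1:181647497-181647556, plus strand: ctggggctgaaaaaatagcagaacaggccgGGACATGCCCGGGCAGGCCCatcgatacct
Glis3, chr19:28268877-28268936, plus strand: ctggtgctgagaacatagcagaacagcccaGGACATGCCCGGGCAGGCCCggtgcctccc
Lix1, chr17:17641426-17641485, plus strand: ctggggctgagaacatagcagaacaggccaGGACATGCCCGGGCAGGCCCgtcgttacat
Gm10069, chr6:128408843-128408902, plus strand: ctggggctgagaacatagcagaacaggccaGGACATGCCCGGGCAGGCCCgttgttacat
Gm3235, chr8:94125386-94125445, minus strand: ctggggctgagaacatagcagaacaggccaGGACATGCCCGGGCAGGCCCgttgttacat

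Their B cells IR values were just under 100 for the first, then 98.4, 93.6, 93.6 and 93.6 and their non-B cells IR values 93.8, 118, 90.6, 105 and 142. The peaks named for Gm1305 and Gm10069 lay in introns of those genes, that named for Gm3235 in an intron of Fto, and the others between genes. In 42 of the 92 peaks the 10 bases before R1 completed a run of 3 abutting decamers whose middle and last are R1 and whose first and middle are R5, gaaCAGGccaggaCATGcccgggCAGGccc, shown with the centres in capitals. In 65 of the 92 peaks the AP-1 motif TGANTCA began 85 bases before the element.

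Repeated sequence limits how reads can be placed. Counting exact 24-base words over the central 200 bp of each peak, the median word occurred at 10 or more places in 127 of the 258 peaks with a much-copied element (49.2%), in 3.21% of the 716 peaks with an element of fewer copies and in 0.272% of the 2572 peaks with no unsplit element. In the 92 peaks with R1 the median word had a median of 22.0 copies, and in 19 of them it had 1. Every 100th tiled window was counted the same way, and 14.1% of those had a median of 10 or more copies. Whether reads that matched several places were kept is not given in the sources used here, and the part of this in the values of these peaks was not tested. Over the 3277 distal shared peaks whose median word occurs at 1 place, the share with an unsplit element was 22.6% (21.2 to 24.1%) and the excess over start-site peaks 18.6 percentage points.

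The share with an element grew with distance from the nearest start site. It was 22.5% (20.8 to 24.4%) at 20 to 50 kb, 31.4% (28.5 to 34.5%) at 50 to 100 kb, 34.7% (30.3 to 39.4%) at 100 to 200 kb and 46.8% (39.7 to 53.9%) beyond 200 kb, while in tiled windows it fell from 2.44 to 1.75%. Elements of 10 or more copies made up 5.56, 7.18, 9.09 and 22.6% in these steps. Elements of fewer copies rose from 17 to 24.2% between the first and the second step and then stood at 25.6 and 24.2%, with overlapping intervals. Inside a gene body lay 45.5% of the peaks at 20 to 50 kb and 11.3% of those beyond 200 kb. Of the 5 peaks farthest from any start site, 4 had an unsplit element. The farthest, at chr14:116526231-116526473 in an intron of Gpc5, the gene of a cell-surface glypican, lay 757599 bp from its start site, had an element without mismatch and values of 12.1 and 7.66. The next, 676909 bp from a Y_RNA model, had 3 mismatches and values of 53.1 and 93.0. Those 674332 bp from Agbl1 and 633486 bp from Mut had 1 mismatch each, and that 660056 bp from a SNORA17 model had no element.

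The share also grew with isolation within the set. Where the nearest other distal shared peak lay within 5 kb, 93 of 826 peaks had an unsplit element, 11.3% (9.28 to 13.6%). At 5 to 20 kb the share was 15.9%, at 20 to 100 kb 25.3%, at 100 to 500 kb 38.3%, and where no other distal shared peak lay within 500 kb it was 283 of 533, 53.1% (48.9 to 57.3%). Both kinds of element rose, those of fewer than 10 copies from 7.99 to 35.6% and those of more from 3.27 to 17.4%. Median values barely moved along this series, from 24.8 to 26.8 in B cells IR and from 19.4 to 20.7 in non-B cells IR.

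**Figure D3:**
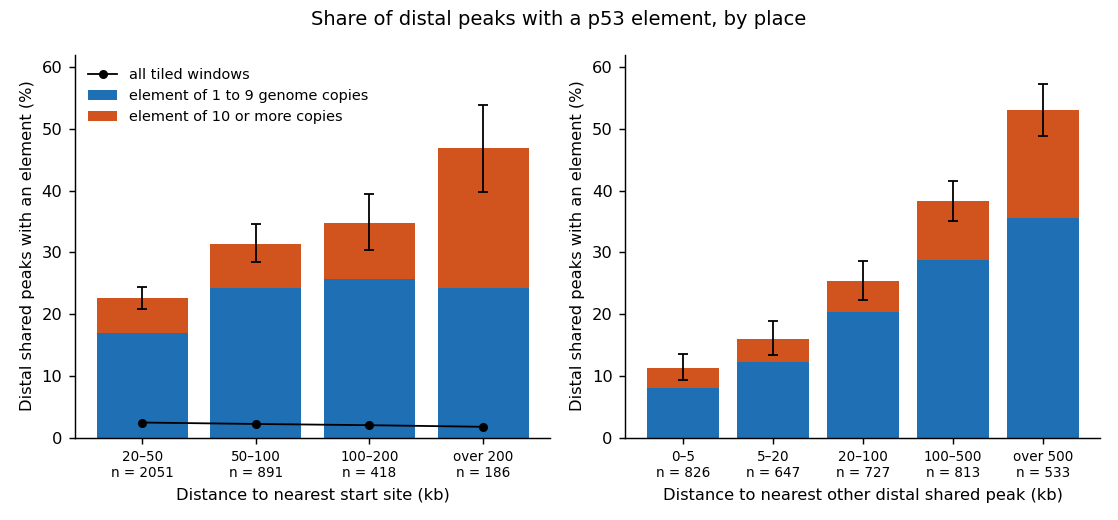
Percentage of distal shared peaks with an unsplit element by distance to the nearest start site (left) and to the nearest other distal shared peak (right); blue is elements of 1 to 9 genome copies, orange of 10 or more, error bars are 95% Wilson intervals of the total, and the black line on the left is all tiled windows at the same distance. The total rises from 22.5 to 46.8% on the left and from 11.3 to 53.1% on the right, and the tiled windows stay between 1.75 and 2.44%.

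Values in the 2 compartments were compared by rank, since deposited values are not on a common scale between libraries, and values of both lists set side by side are a description only. The distal shared peaks had a median value of 25.8 in B cells IR, where the rule capped it at 100, and their non-B partners a median of 19.7 with a range of 5.29 to 555. Spearman's rho between the values, over 3546 peaks that share library and background, was 0.711. The percentile of the partner in the non-B cells IR list was above that of the peak in the B cells IR list for 1174 peaks, 33.1%. That share was 30.7% (28.9 to 32.5%) of peaks with no unsplit element, 35.1% (31.6 to 38.6%) of those with an element of fewer than 10 copies and 51.9% (45.9 to 58.0%) of those with a much-copied element. Median values in B cells IR were 24.1, 30.1 and 35.5 in these 3 classes, and 18.4, 23.0 and 31.3 in non-B cells IR. How far the ranks of single peaks lay apart was not compared between these classes. The rule capped the rank in B cells IR at a percentile of 95.7 and left that of the partner free, up to 99.9. Median B cells IR percentiles were 60.4, 70.7 and 76.6 in the 3 classes, so their room below the cap differed. The shares ranked higher in non-B cells IR are therefore partly set by the rule and are a description only.

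**Figure D4:**
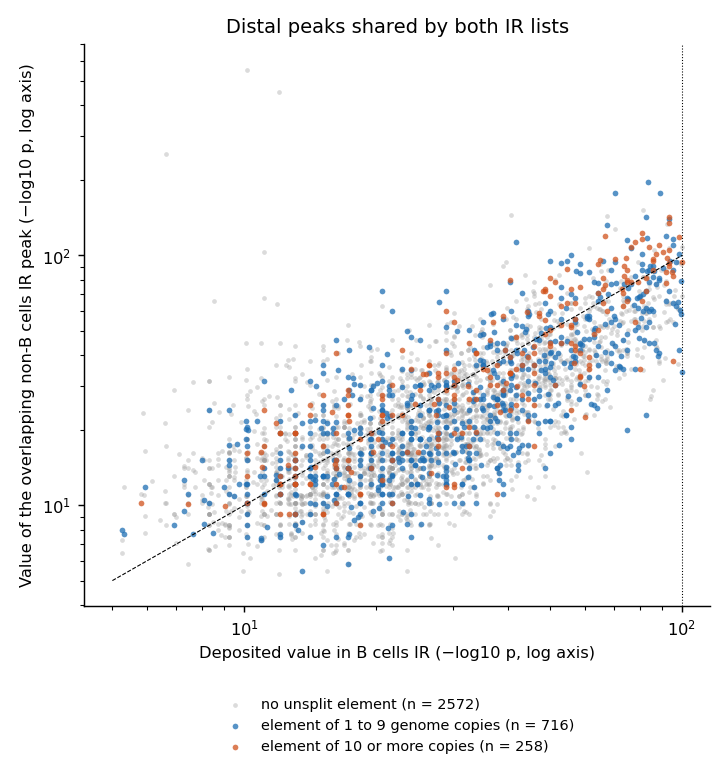
Deposited value (read as −log10 p) of each of the 3546 distal shared peaks in B cells IR (horizontal, log axis) against that of the overlapping non-B cells IR peak (vertical, log axis). Colours give the element class, the dashed line marks equal values and the dotted line the limit of 100. Most points lie below the dashed line, and 3 grey points at the upper left have partner values of 254 to 555.

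The 5 highest non-B cells values were 555, 449, 254, 196 and 177. The first 3 belonged to peaks with B cells IR values of 10.2, 12 and 6.62, near 1200011I18Rik, inside Rad51l1 and inside Sh3gl3. These were edge cases of the overlap rule. Their partners were 2035, 1818 and 1374 bp wide, the overlaps were 163, 65 and 103 bp, and the same partners also held another B cells IR peak with a value of 300, 279 and 114, which the rule left out. In all, 34 distal shared peaks had a partner that was also the partner of another B cells IR peak. The other 2 were sites of their own. The peak at chr15:59961595-59962117, 45513 bp from a U6 model, had 83.6 in B cells IR against 196 in non-B cells IR, and that at chr16:92995739-92996516, 169817 bp from Runx1, a transcription factor of blood stem cells and T cells, had 70.3 and 177. Each had an element with 1 mismatch that occurs at 1 place in the genome. Partners with a value of 100 or more numbered 42, and 29 of these peaks had an unsplit element, 69.0% (54.0 to 80.9%).

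The peaks without an element differed in the motifs of other transcription factors. Each motif was searched as fixed letters on both strands in the same 600 bp windows, and a match is a description of sequence and no evidence of the factor. The sets differed in GC content, and motif shares were not compared at like GC. Median GC was 46.5% in peaks without an unsplit element, 45.8% in all distal shared peaks, 59.0% in start-site peaks and 40.3% in tiled windows. The PU.1 motif GAGGAAGT, the word of an ETS-family factor of B cells and myeloid cells, was in 16.8% (15.4 to 18.3%) of the 2572 distal shared peaks without an unsplit element, in 7.26% (5.58 to 9.40%) of the 716 with an element of fewer than 10 copies, in 7.24% of start-site peaks and in 3.55% of tiled windows. The difference between the first 2 of these was 9.57 percentage points (7.02 to 11.8). The RUNX motif TGTGGTTT was in 10.2 and 5.45% of the same classes and 5.33% of tiled windows. The E-box CAGCTG, a word of E proteins, was in 33.2 and 23.0%, against 18.2% of tiled windows, and the octamer ATGCAAAT of the Oct factors in 6.80 and 2.79%, against 5.83%. NF-kB words GGGACTTTC were rarer, at 2.57 and 0.978% against 0.629%. For the IRF and EBF words the same difference was 2.96 and 2.09 percentage points, with intervals that include 0 (-0.594 to 6.29 and -0.444 to 4.31). These words were not particular to the distal shared peaks. PU.1 was in 14.2% of all of them, 14.4% of peaks of the same rule at 1 to 20 kb and 12.8% of distal peaks listed in irradiated B cells alone. In the same order RUNX was in 9.02, 9.48 and 6.80%, and CAGCTG in 29.2, 33.2 and 31.1%.

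Between peaks without and with an element, AP-1 and GATA words went the other way. TGANTCA was in 18.8% of the peaks without an element, 25.6% of those with an element of fewer copies and 69.8% (63.9 to 75%) of those with a much-copied one, against 17.3% of tiled windows. Of these 180 peaks, 65 are those with R1 and the AP-1 word at the fixed place before it. AGATAA was in 26.4, 39.7 and 46.1%, against 36.7% of tiled windows. Some of the remaining words were rarer in distal than in start-site peaks. The KLF/SP word GGGCGG was in 13.5% of distal shared peaks and 71.7% of start-site peaks, the ETS word CCGGAAGT in 1.16 and 12.9%, and the CRE TGACGTCA in 0.677 and 4.46%. In tiled windows the KLF/SP, ETS and CRE words were rarer still, at 3.92, 0.279 and 0.287%. IRF, GAAANNGAA, was in 22.9% of distal shared peaks and 23.0% of tiled windows, and EBF, TCCCNNGGG, in 9.56 and 4.73%. In start-site peaks EBF was more frequent, at 14.7%, and IRF less, at 15.9%. TCF/LEF, ATCAAAG, was in 9.05% and below the 12.8% of tiled windows. The E-box CAGGTG was in 36.2% of distal shared peaks and 28.5% of tiled windows, and the CTCF core in 1.38 and 0.208%. Between distal and start-site peaks these last words differed by 1.76 and 0.125 percentage points, with intervals that include 0 (-0.168 to 3.70 and -0.318 to 0.625). The PU.1 and ETS words end in the same letters but differ before them, so no stretch counts as both.

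**Figure D5:**
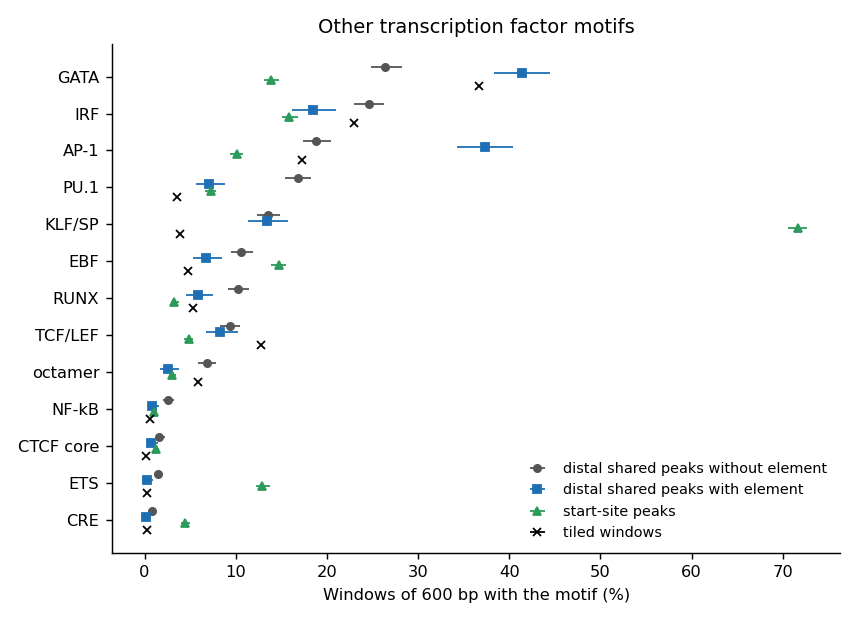
Percentage of 600 bp windows with each of 13 other motifs in distal shared peaks without (grey circles) and with an unsplit element (blue squares), in start-site peaks of the same rule (green triangles) and in all tiled windows more than 20 kb from a start site (crosses), with 95% Wilson intervals. KLF/SP stands at 71.7% in start-site peaks, and PU.1 at 16.8% in distal shared peaks without an element. The sets were not matched for GC content.

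As examples of peaks with a PU.1 word and no unsplit, spaced or full decamer match, the 3 with the highest B cells IR values are printed on the plus strand with 30 bases on either side of the word, in capitals. They were chosen after their values were seen.
5830416P10Rik, chr19:53499279-53499346: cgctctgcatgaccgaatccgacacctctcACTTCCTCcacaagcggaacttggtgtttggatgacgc
Actr3, chr1:127385036-127385103: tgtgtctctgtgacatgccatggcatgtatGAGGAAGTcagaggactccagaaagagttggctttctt
Cfdp1, chr8:114345218-114345285: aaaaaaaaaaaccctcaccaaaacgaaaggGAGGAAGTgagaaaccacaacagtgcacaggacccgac

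Their values were 99.5 and 92.5, 93.6 and 107, and 92.0 and 87.4 in the irradiated B and non-B lists. The first lay 22448 bp and the second 52954 bp from a start site between genes, and the third in an intron of Cfdp1. The peak near Actr3 holds a pair of abutting decamers with 4 mismatches, just beside its PU.1 word and 1 more than the limit used here. The median B cells IR value of all peaks without an unsplit element was 24.1.

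The distal shared peaks were spread over 20 chromosomes, with 303 on chromosome 1 and 63 on the X. Per megabase of tiled windows the X had 0.728, the fewest, and the autosomes 1.71 to 4.45. They also gathered in stretches. The densest 50 kb held 12 peaks, chr15:74736580-74764864, 20760 to 35323 bp from start sites, of which 11 were nearest to Ly6e, a lymphocyte surface protein gene. Their B cells IR values were 11 to 98.1 and their non-B cells IR values 7.72 to 94.3, and none had an unsplit element. The next held 9 each, chr6:51079675-51129515, nearest to Mir148a, a microRNA gene, with B cells IR values of 7.46 to 48.3, and chr9:32300386-32324648 inside Fli1, an ETS-family factor of blood cells, with 11.1 to 49.9. Again none of these 18 peaks had an unsplit element. By gene body, Eif4e3 held 13 distal shared peaks, 3 of them with an element, and its gene model here spans 409314 bp. Asap1, Fgfr2, Ptk2b and Rad51l1 held 10 each, 2, 1, 0 and 0 of them with an element. Ptk2b, a tyrosine kinase of lymphocyte adhesion, is the shortest of these at 127796 bp. The gene model of Fgfr2 is the longest at 3009069 bp, on chromosome 7, which had 2.93 distal shared peaks per megabase of tiled windows. Gene length was not taken into account in these counts.

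The start site nearest to a distal shared peak belonged to a protein-coding gene in 2476 cases, 69.8%, and often to a small RNA model in the rest. These were 1496 gene symbols, 6.73% of the 22238 protein-coding symbols annotated. Of them 45.9% (43.3 to 48.4%) had a B cells IR peak of any kind between 5 kb upstream and 2 kb downstream of their start, against 35.9% of the other symbols, a difference of 9.94 percentage points (7.34 to 12.6). The genes nearest to most peaks were Foxp1 and Tbl1xr1 with 15 each, Ets1 with 14, Btg1 with 13 and Ly6e with 11. Few of these peaks had an element, 3, 2, 1, 3 and 0. Nearness was the only link measured.

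Of 44 listed p53 target genes 6 were nearest to a distal shared peak, 13.6% against the 6.73% of all protein-coding symbols, with 23 peaks together. The list was chosen with earlier results of these data known, and the symbols were not matched for sequence far from start sites, so this is a description only. Eda2r, a death receptor of the TNF receptor family that p53 activates, had 1 peak 104634 bp away on the X with 39.1 in B cells IR against 37.9 in non-B cells IR. Its element has no mismatch and occurs at 1 place, and is shown in capitals on the plus strand for that reason.
Eda2r, chrX:94467832-94467871: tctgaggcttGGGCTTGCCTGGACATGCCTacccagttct

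Ddit4, an inhibitor of mTOR signalling, had 1 peak 34906 bp away with 13.1 in both lists and an element with 2 mismatches. Pmaip1, the gene of the death protein Noxa, had 1 peak 20743 bp away with 53.5 and 22.9 and no element. Btg1, an antiproliferative gene, had 13 peaks from 21347 to 225124 bp away with B cells IR values of 7.29 to 67.6, non-B cells IR values of 7.31 to 39.7 and an element in 3. Bcl6, a repressor of germinal centre B cells, had 4 with 28.4 to 73.3 and 13.1 to 54.4, and Fyn, a Src-family kinase, 3 with 8.33 to 28.7 and 8.36 to 25.4. The other 38 listed targets had no distal shared peak nearest to them.

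Lists of lymphoid and other immune genes were counted in the same way, with no test between lists. The B cell identity list had 10 of 30 genes nearest to a distal shared peak (33.3%), with 35 peaks, and the T cell identity list 11 of 27 (40.7%), with 33 peaks, against 6.73% of all protein-coding symbols, while the list of NK and myeloid genes had 2 of 24, with 6 peaks. The lists were chosen with earlier results of these data known. A gene can also count only where sequence more than 20 kb from every start site lies beside it. All symbols are therefore not a like background, and these shares are a description only. Foxp1, a regulator of B cell development, was nearest to 15 peaks, 7 in its own introns and 8 in introns of Eif4e3, with B cells IR values of 6.17 to 87.2 and non-B cells IR values of 6.91 to 76.5. Bach2, a repressor of plasma cell fate, had 4 with 14.8 to 35.8 and 16 to 40.5. Irf4 had 3 with 7.99 to 22.9 and 11 to 16.2, and Pou2af1, a coactivator of the Oct factors, 3 with 31.7 to 75.3 and 18.4 to 67.2. Bcl6 is on this list as well as among the p53 targets. Cd83 had 2, and Ikzf1, Irf8, Blnk and Cr2 had 1 each, none of them with an element.

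On the T cell side Ets1 had 14 peaks from 23050 to 285116 bp away, with 7.29 to 61.2 in B cells IR against 6.64 to 55.9 in non-B cells IR, 1 of them with an element. Tcf7, a factor of T cell development, had 3 peaks with 39.1, 12.1 and 10.1 in B cells IR and 90.6, 44.6 and 44.6 in non-B cells IR, the last 2 values from the same partner. Bcl11b, which maintains T cell fate, had 1 with 67.3 and 144, Themis 1 with 93.6 and 140, in an intron of Ptprk, and Lef1 1 with 34.6 and 48.1. Tox had 2 with 7.99 and 86.1 against 15.2 and 105, and Il7r 1 with 11.4 and 27.5. Runx3 and Satb1 had 4 each, Runx3 with 14.6 to 73.3 in B cells IR against 12.1 to 69.0 in the non-B list and Satb1 with 16 to 62.7 against 20.4 to 48.7. Il2ra had 1 with 19.4 and 9.38, and Cd247 1 with 20.4 and 21.4.

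By rank, 17 of the 33 peaks near T cell identity genes stood higher in the non-B cells list, 51.5%, against 11 of 35 near B cell identity genes, 31.4%, and 33.1% of all distal shared peaks. The difference between the T and B cell lists was 20.1 percentage points with an interval that includes 0 (-3.14 to 40.6). Between the T cell list and all distal shared peaks, which contain it, the difference was 18.4 points, given without an interval because the sets overlap. Peaks near 1 gene are not independent of each other, and Ets1 and Foxp1 supply 14 and 15 of these peaks, so both differences are a description only. Id2, a regulator of innate lymphoid cells, had 5 of the 6 peaks of the last list, with 12.1 to 43.1 and 15 to 32.4, and Klrb1c the other, with 10.5 and 12.4.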

How the data were processed

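The deposited peak lists hold 1 value per peak, taken from its distribution as −log10 of the p-value computed by the authors. Per the labels and methods, libraries were aligned to mm9 with BWA 0.6.2 (default settings) and peaks were called with MACS. Each immunoprecipitated library has its own list of peaks. A calling limit of 8 on this scale is stated, yet each list holds values from just over 5. Depth is unknown. Values of different lists were set side by side as description and compared by rank.

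Start sites and genes came from GENCODE vM1 (95495 transcripts). Windows of 600 bp around midpoints, and 2478623 tiled windows more than 20 kb from a start site, were searched on NCBIM37 for the p53 element (both strands) and a list of other motifs. A much-copied element has 10 or more copies in the genome. Repeats were not masked. Peaks named were the best elements, those at the limits, the highest partners, the farthest, the densest and those near listed genes. The rule, members, motifs and gene lists were chosen with earlier results of these data known. Counting was done in Python 3.11.15 (numpy 2.4.6, scipy 1.17.1) and tested on simulated data. Alternatives varied overlap, value, distance, start sites, element and window. With 1 library per group no test was made.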

Additional observations from a re-analysis of the deposited data

How the results depend on the processing

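No paired analysis was possible because no group held more than 1 library, and no library could be left out. The number of distal shared peaks was 1545 with a value of at least 20 in both lists, 5382 beyond 10 kb and 1495 beyond 50 kb. The share with an unsplit element was 35% at values of at least 20, 24.1% below 50, 25.8% beyond 10 kb, 34.2% beyond 50 kb and 25.9% with protein-coding start sites. It was 20.6% with at most 2 and 34.5% with at most 4 mismatches, and 22.5 and 25.1% within 100 and 150 bp of the midpoint. The excess over start-site peaks was 30 percentage points at values of at least 20, 20.5 below 50, 21.6 beyond 10 kb, 30.1 beyond 50 kb, 19.4 with at most 2 mismatches and 20.5 within 100 bp. The share inside a gene body was 38.6% at values of at least 20, 44.2% beyond 10 kb, 33.2% beyond 50 kb and 44.2% with protein-coding start sites. With peaks limited to central words that occur at 1 place, an alternative chosen after seeing the data, these results were 22.6%, 18.6 points and 42.4%. The other 31 values stayed within 1.5 times the main count or inside the main interval, and the excess over start-site peaks was above 0 in each alternative run. Lists without read numbers do not show whether a site absent from a list was unbound.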
